A study of Mus musculus with 6 samples.

Results

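The genes described here carry signals of the transforming growth factor beta (TGF-beta) and bone morphogenetic protein (BMP) family. They were taken by name from a list of 56 genes that covers ligands, latent-complex proteins, receptors, secreted antagonists, Smads, regulators of Smads and target genes. That list was chosen with earlier results of these data known. All 56 were found as rows among the 43760 rows of the gene table, and 47 of them passed the filter on low counts, among 12354 rows that passed in all. Of those 47, 31 (66.0%) differed between day 7 and day 0 at an edgeR adjusted p under 0.05, where 60.0% of all tested genes did. The falls outnumbered the rises: 8 members were higher at day 7 (17.0%, against 30.8% of all tested genes) and 23 were lower (48.9%, against 29.2%). At least 2-fold, 5 were higher (16.0% of all tested genes were) and 21 lower (17.7% were). The libraries of the days did not overlap for 34 of the 47 (72.3%), against 68.3% of all tested genes. The median log2 fold change was -0.90 over the 47 tested members and 0.02 over all tested genes. The filter asked for 0.836 CPM (counts scaled to a common library total of 1000000) in 3 libraries, and 9 members reached it in all 3 libraries of 1 day only: Gdf5 through day 7, and Bmp4, Gdf10, Inhba, Nbl1, Eng, Smad9, Id2 and Id4 through day 0. Such genes were tested because they were high on that day, so their calls and p-values carry that choice. Of the 38 members that reached it in every library, 7 were higher (18.4%, against 32.0% of the 10660 such genes) and 16 lower (42.1%, against 26.8%). Among the TGF-beta ligands, the latent TGF-beta binding proteins and the secreted antagonists some genes rose and others fell, and among the TGF-beta ligands and the latent binding proteins a different member led at day 7 than at day 0. The receptor genes Tgfbr1, Tgfbr2, Bmpr1a and Bmpr2 did not pass the threshold.

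In this family, a dimeric ligand binds type II and type I receptor kinases, and the type I receptor phosphorylates receptor Smads, which enter the nucleus with Smad4. TGF-beta and activin ligands act mainly through Smad2 and Smad3, and BMP ligands mainly through Smad1, Smad5 and Smad9. Both branches are known to act on fat cell precursors: TGF-beta restrains adipocyte differentiation in culture, and some BMP ligands promote commitment to the adipocyte lineage.

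The cells were 3T3-L1, a mouse preadipocyte line of wild-type genotype that accumulates lipid when it is given an adipogenic cocktail. Day 7 cells were differentiated with IBMX, Insulin, Dexamethasone and roziglitazone (rosiglitazone), and day 0 cells were collected undifferentiated, with 3 libraries per day. The cocktail and the time in culture differ between the days along with differentiation, and their parts cannot be told apart. All 6 libraries come from 1 cell line, and since nothing in the labels assigns them to separate cultures, the p-values may reflect technical spread alone.

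Library totals lay between 7655822 and 16987076 estimated counts, and the third day 7 library was the smallest. The marker genes separated the days as labelled: summed adipocyte marker levels were 3409 to 5610 CPM in day 7 libraries and 28.9 to 36.0 CPM in day 0 libraries, although Lep had 1 count in all. Summed fibroblast and preadipocyte markers were 659 to 1243 CPM at day 7 and 4390 to 4959 CPM at day 0, with Cd34 near 0 on both days. The smooth muscle markers Myh11 and Des summed to 27.8 to 37.7 CPM at day 7 and 2.89 to 3.67 CPM at day 0, the endothelial and the leukocyte markers stayed below 2 CPM in every library, and Myod1 and Myog of skeletal muscle had no counts. Osteoblast and chondrocyte markers summed to at most 0.815 CPM. The third day 7 library stood apart from the others on the second axis of a multidimensional scaling plot (1.81, against -0.62 in the first and -0.99 in the second day 7 library). It was the highest day 7 library for 5 of the 6 fibroblast and preadipocyte markers, such as Dlk1 (254 CPM, against 50.9 in the first and 133 CPM in the second), but not for Col1a1 (699 CPM, against 514 and 965 CPM). Of those 5, Cd34 had 1 count in each day 7 library, so its order came from the library scaling alone. The sum of the 6 was 1168 CPM in the third library, against 659 and 1243 CPM. That library was also the highest for 4 of the 7 adipocyte markers, Adipoq, Plin1, Pparg and Cebpa, with a sum of 5282 CPM, against 5610 and 3409 CPM. Results that rest on this library are given with and without it. Levels below are CPM scaled by TMM, fold changes are from edgeR with a standard error (SE), and p-values are adjusted over all tested genes. With libraries scaled by total counts instead, 2355 of all tested genes were higher and 4025 lower, against 3802 and 3611 with TMM, and 7 members were higher and 28 lower. That scaling moved the median log2 fold change of all tested genes to -0.21, and none of the 31 called members changed sign under it. In bulk RNA, fewer cells that express a gene and less of its RNA per cell cannot be told apart.

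**Figure D1:**
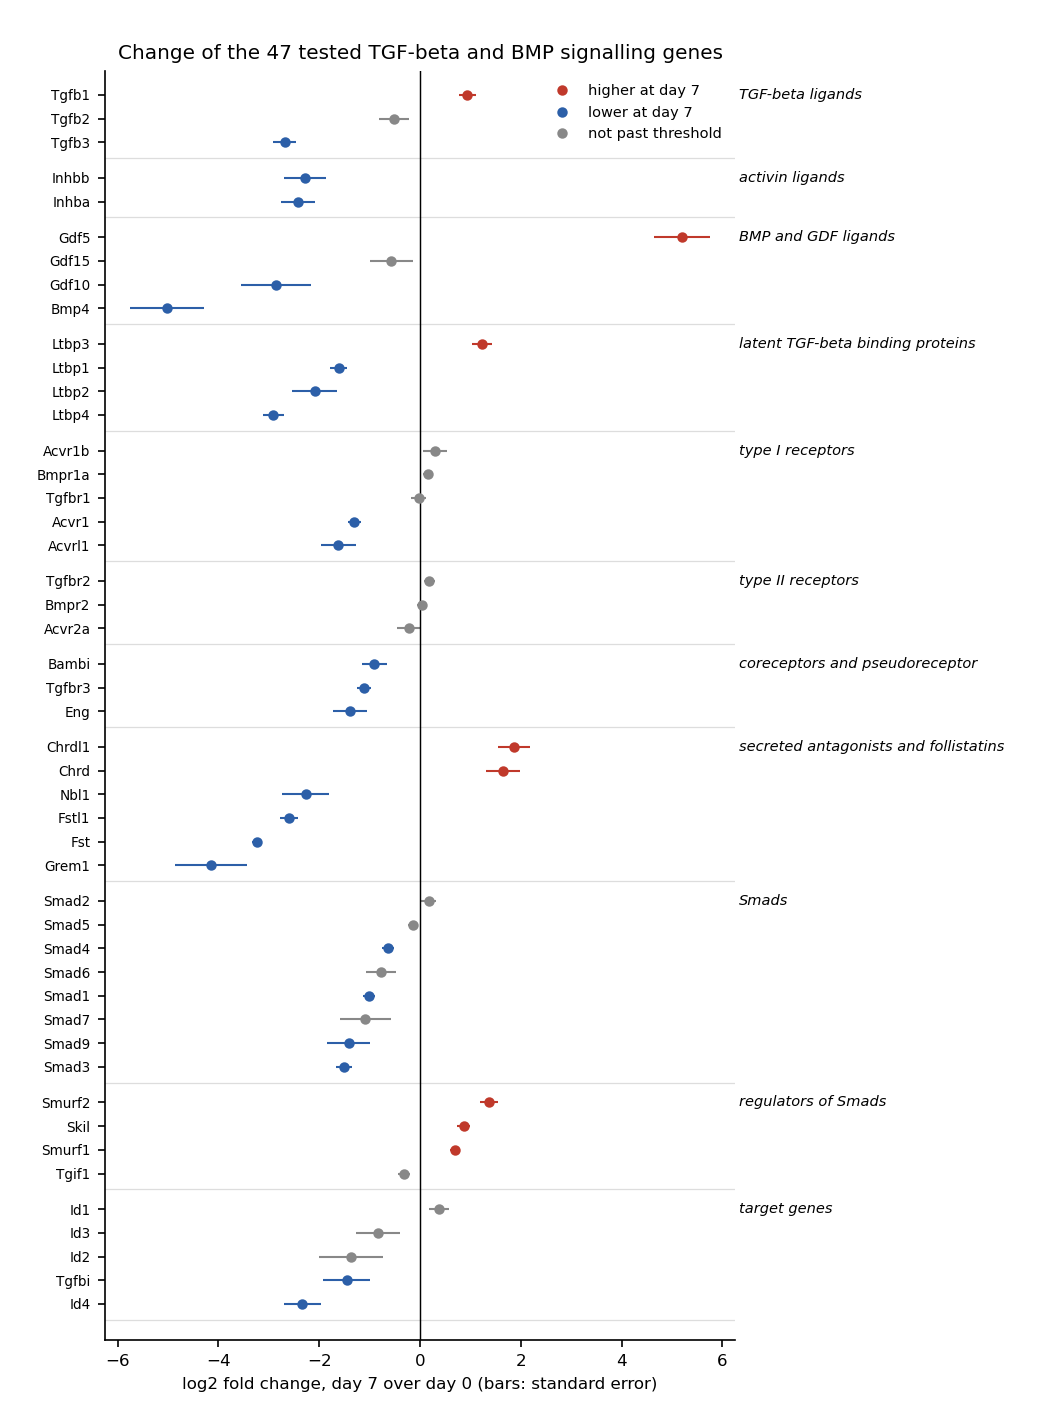
Log2 fold change (day 7 over day 0, with its standard error) of the 47 tested TGF-beta and BMP genes, grouped by role; red genes were higher and blue genes lower at day 7 at an edgeR adjusted p under 0.05, and grey genes did not pass. Blue points fill most roles, with 23 genes lower and 8 higher, while the type II receptors lie near 0.

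Among the TGF-beta ligands, Tgfb1 rose, Tgfb3 fell and Tgfb2 did not pass the threshold. Tgfb1 encodes the most studied isoform of this cytokine. It had 19.8, 28.0 and 28.5 CPM in day 7 libraries, against 13.7, 13.4 and 12.5 CPM in day 0 libraries. Every day 7 library lay above every day 0 library (log2 fold change 0.94 ± 0.17 SE, adjusted p = 0.0018). Tgfb3 had 5.38, 7.73 and 11.0 CPM in day 7 libraries, against 48.9, 53.3 and 48.0 CPM in day 0 libraries. It was 6.42-fold lower at day 7 with no overlap (log2 fold change -2.68 ± 0.23, adjusted p = 5.3e-05). Tgfb2 had 11.8, 16.8 and 28.5 CPM at day 7, against 27.5, 28.8 and 24.0 CPM at day 0. Here the third day 7 library lay inside the day 0 range while the other two lay below it (log2 fold change -0.52 ± 0.29, adjusted p = 0.16), and without that library its log2 fold change was -0.92 and passed the threshold, as it did with total-count scaling, at -0.74.

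The order of the ligand levels turned round between the days. Per kilobase of exon, Tgfb1 came first at day 7 (5.04 ± 0.971 CPM per kilobase, SD, n = 3), before Tgfb2 (3.29 ± 1.48) and Tgfb3 (2.38 ± 0.833), and the difference between the last 2 was smaller than the SD of Tgfb2. At day 0 the order was Tgfb3 (14.8 ± 0.823 CPM per kilobase), Tgfb2 (4.62 ± 0.423) and Tgfb1 (2.62 ± 0.120), with gaps larger than the SD. As shares of the summed ligand level, Tgfb1 made up 48.2% ± 6.30 at day 7 and 11.9% ± 0.519 at day 0, and Tgfb3 made up 22.0% ± 1.35 at day 7 and 67.2% ± 1.10 at day 0. The summed level of the 3 genes was 10.7 ± 3.14 CPM per kilobase at day 7 and 22.0 ± 1.27 at day 0. These shares were chosen after the values were seen and are given as a description. Tgfb1 lies at chr7:25687002-25705077, Tgfb2 at chr1:186622792-186705989 and Tgfb3 at chr12:86056745-86079041 (GRCm38). Tgfb3 overlaps Ttll5 on the other strand, and how strand was used in counting is not given in the sources used here.

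**Figure D2:**
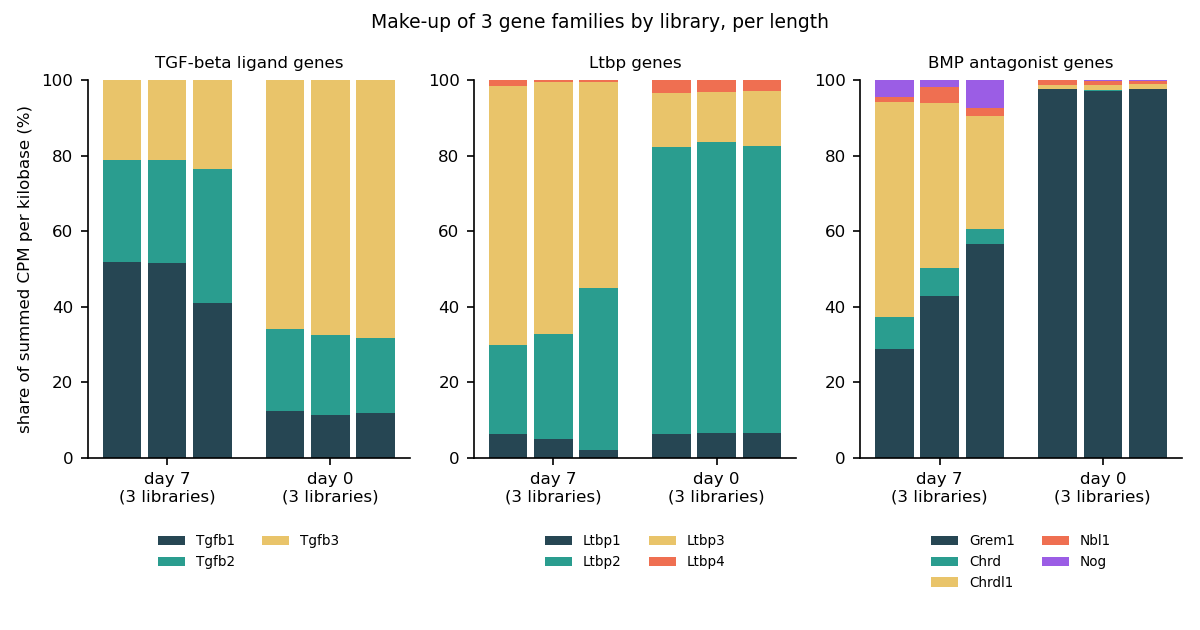
Share (%) of each gene in the summed level per kilobase of exon of 3 gene families, 1 bar per library, with the day 7 libraries left of the day 0 libraries. Tgfb3, Ltbp2 and Grem1 hold most of their family in every day 0 library (means 67.2%, 76.3% and 97.4%), and at day 7 their mean shares are 22.0%, 31.4% and 42.8%.

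Both tested activin subunit genes were lower at day 7, where 29.2% of all tested genes were. Activins are dimers of inhibin beta chains that use the same Smads as TGF-beta. Inhbb, the beta B chain (chr1:119415465-119422248), had 2.72, 10.9 and 6.52 CPM in day 7 libraries, against 29.5, 28.5 and 36.7 CPM in day 0 libraries. All day 7 libraries lay below all day 0 libraries, 4.85-fold on average (log2 fold change -2.28 ± 0.42, adjusted p = 0.0022), and the log2 fold change was -2.89 without the second day 7 library. Inhba, the beta A chain (chr13:16011851-16031621), had 0.623, 1.42 and 1.63 CPM at day 7, against 5.88, 5.34 and 7.01 CPM at day 0. It was 5.33-fold lower with no overlap (log2 fold change -2.41 ± 0.34, adjusted p = 0.00056), and it was tested only through its day 0 level.

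Most of the BMP and GDF ligand genes had few or no counts. Of 9 members 4 could be tested, and Bmp2, Bmp6 and Bmp7 had no count in any of the 6 libraries, which allows a level of up to 0.0404 CPM over all libraries (3 counts, counting error only). Bmp5 had 2 counts, both in the second day 7 library, and Gdf6 had 1 count in the first. Bmp4, a ligand known to promote adipocyte commitment (chr14:46383520-46390669), had 0, 3 and 0 counts in day 7 libraries, against 35, 40 and 48 counts in day 0 libraries. Its counts were 36.2-fold lower at day 7 after scaling (95% exact counting interval 12.1 to 178, edgeR adjusted p = 0.00072). The fitted log2 fold change of -5.02 ± 0.74 was -8.36 without the second and -4.11 without the first day 7 library. With so few counts at day 7 these fitted values are no bounds.

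Gdf5 showed the highest fold change among the members. GDF5 is a BMP-like ligand best known from joint and cartilage development (gene at chr2:155941023-155945367). It had 152, 54 and 113 counts in day 7 libraries, against 5, 4 and 1 counts in day 0 libraries. That is 8.62, 5.50 and 15.3 CPM at day 7 and 0.439, 0.249 and 0.0834 CPM at day 0, 36.7-fold higher at day 7 with no overlap (log2 fold change 5.20 ± 0.56, adjusted p = 0.00016). Gdf5 was tested only through its day 7 level, and Bmp4 and Gdf10 only through day 0. Gdf10, a relative of Bmp3, had 0.0567, 0.204 and 1.09 CPM at day 7, against 2.54, 2.24 and 2.92 CPM at day 0 (log2 fold change -2.86 ± 0.70, adjusted p = 0.0085). Here the third day 7 library was the highest of its day, and the log2 fold change was -4.42 without that library and -2.09 without the first. Gdf15, a stress-induced hormone, averaged 1.43 ± 0.627 CPM at day 7 and 2.15 ± 0.95 CPM at day 0 and did not pass (adjusted p = 0.28).

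The 4 latent TGF-beta binding protein genes all changed, where 60.0% of all tested genes did, and Ltbp3 alone rose. These proteins tie the inactive TGF-beta complex to the extracellular matrix, and LTBP1, LTBP3 and LTBP4 bind it covalently while LTBP2 does not. Ltbp3 (chr19:5740904-5758532) had 203, 290 and 346 CPM in day 7 libraries, against 122, 120 and 117 CPM in day 0 libraries. The days did not overlap (log2 fold change 1.22 ± 0.19, adjusted p = 0.0011). Ltbp2 (chr12:84783212-84876532) had 63.0, 109 and 246 CPM at day 7, against 583, 631 and 554 CPM at day 0. It was 4.24-fold lower with no overlap (log2 fold change -2.08 ± 0.45, adjusted p = 0.0046), and its log2 fold change was -2.78 without the third day 7 library, its highest of that day. Ltbp1 (chr17:75005568-75392512) had 21.8, 26.0 and 16.2 CPM at day 7, against 64.6, 69.7 and 62.6 CPM at day 0. It was 3.06-fold lower in libraries that did not overlap (log2 fold change -1.61 ± 0.17, adjusted p = 0.00012). Ltbp4 (chr7:27305136-27337692) had 3.17, 1.83 and 2.44 CPM at day 7, against 20.4, 19.8 and 17.3 CPM at day 0. It showed the largest fall of the 4, 7.50-fold (log2 fold change -2.91 ± 0.21, adjusted p = 2.5e-05).

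Per length, Ltbp3 made up 63.2% ± 7.69 of the Ltbp transcripts at day 7 and 14.0% ± 0.688 at day 0. Ltbp2 made up 31.4% ± 10.2 at day 7 and 76.3% ± 0.744 at day 0. Their order was Ltbp3 (30.8 ± 7.96 CPM per kilobase) before Ltbp2 (17.0 ± 11.7) at day 7 and Ltbp2 (72.0 ± 4.72) before Ltbp3 (13.2 ± 0.284) at day 0. The summed level of the family was 50.2 ± 18.9 CPM per kilobase at day 7 and 94.3 ± 5.35 at day 0.

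The promoter of Ltbp3, the latent-complex gene that rose, is shown here with those of 2 genes that fell and are described below, Grem1 and Id4, because BMP and TGF-beta Smads are known to bind short DNA elements. Each line gives the 250 bases before the RefSeq start of the gene (GRCm38.p6), which hold no annotated exon. Capitals mark the Smad box, CAGAC or its reverse complement GTCTG, and the GC-rich BMP Smad element, GGCGCC, searched on both strands. The windows are chr19:5740650-5740899 on the plus strand for Ltbp3, chr2:113758649-113758898 on the minus strand for Grem1 and chr13:48260866-48261115 on the plus strand for Id4.
Ltbp3: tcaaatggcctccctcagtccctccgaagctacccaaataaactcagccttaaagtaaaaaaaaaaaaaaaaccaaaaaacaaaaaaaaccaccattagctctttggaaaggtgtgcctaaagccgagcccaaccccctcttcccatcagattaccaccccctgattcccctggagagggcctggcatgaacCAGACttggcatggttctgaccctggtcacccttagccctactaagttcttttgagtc
Grem1: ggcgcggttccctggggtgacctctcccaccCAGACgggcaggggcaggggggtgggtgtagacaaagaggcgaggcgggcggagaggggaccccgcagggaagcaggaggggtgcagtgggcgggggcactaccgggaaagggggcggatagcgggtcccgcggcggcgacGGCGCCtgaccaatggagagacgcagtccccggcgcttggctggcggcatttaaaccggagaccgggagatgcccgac
Id4: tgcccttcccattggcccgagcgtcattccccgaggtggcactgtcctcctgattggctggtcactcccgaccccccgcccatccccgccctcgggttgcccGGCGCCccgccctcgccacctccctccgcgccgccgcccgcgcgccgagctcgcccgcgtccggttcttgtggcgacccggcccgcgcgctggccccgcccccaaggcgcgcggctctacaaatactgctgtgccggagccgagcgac
The Ltbp3 window holds 1 Smad box, the Grem1 window 1 Smad box and 1 GC-rich element, and the Id4 window 1 GC-rich element. A RefSeq window was found for 40 of the 56 members, 53 windows in all. CAGAC or GTCTG stood in 50.9% of these and in 42.2% of all 32851 windows, and GGCGCC in 26.4% and 9.59%. Of the 20 windows of members called lower, 35.0% held CAGAC or GTCTG and 35.0% GGCGCC, and of the 5 windows of members called higher 60.0% and 40.0% did. The member windows were also richer in G and C, at a mean of 65.0% against 53.2% over all windows. A match is a run of letters and does not show that a factor binds there.

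No tested type II receptor gene passed the threshold, where 60.0% of all tested genes did. These kinases bind the ligand first and phosphorylate the type I receptor. None of the 3 tested genes passed at an unadjusted p under 0.05 either, and 0 passed with DESeq2 or limma-voom. Tgfbr2, the TGF-beta receptor of this class (chr9:116084293-116175360), had 80.4, 70.1 and 65.3 CPM in day 7 libraries, against 63.4, 65.4 and 61.2 CPM in day 0 libraries. Its lowest day 7 library lay just inside the day 0 range (log2 fold change 0.19 ± 0.11, adjusted p = 0.18), and without the third day 7 library the log2 fold change of 0.25 passed. Bmpr2, the main BMP receptor of this class (chr1:59763400-59879014), had 144, 134 and 134 CPM at day 7, against 128, 136 and 135 CPM at day 0. The first day 7 library lay above day 0 and the other two inside its range (log2 fold change 0.04 ± 0.10, adjusted p = 0.72). Acvr2a, an activin receptor, averaged 49.4 ± 16.3 CPM at day 7 and 57.9 ± 2.40 CPM at day 0 (adjusted p = 0.43), and it overlaps Orc4 on the other strand. Acvr2b was not tested, with 27 counts over the day 7 libraries and 9 over the day 0 libraries.

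Among the type I receptors, Acvr1 and Acvrl1 fell and the others did not pass. Tgfbr1, the TGF-beta receptor (chr4:47353222-47414931), had 44.0, 55.4 and 36.9 CPM in day 7 libraries, against 45.1, 47.5 and 45.9 CPM in day 0 libraries. The day 7 libraries lay on both sides of the day 0 range (log2 fold change -0.02 ± 0.15, adjusted p = 0.91). Bmpr1a, a BMP receptor (chr14:34410734-34503341), had 103, 87.4 and 93.0 CPM at day 7, against 85.5, 84.4 and 83.2 CPM at day 0. Its days did not overlap, but the difference did not pass (log2 fold change 0.16 ± 0.10, adjusted p = 0.20). Acvr1, a receptor for several BMPs (chr2:58388644-58567157), had 13.7, 15.6 and 17.2 CPM at day 7, against 37.0, 40.5 and 36.4 CPM at day 0. It was 2.46-fold lower with no overlap (log2 fold change -1.30 ± 0.12, adjusted p = 7.9e-05). Acvrl1, the receptor ALK1 known from blood vessels (chr15:101128522-101145336), had 1.70, 2.44 and 4.75 CPM at day 7, against 7.81, 8.14 and 9.76 CPM at day 0. All 3 day 7 libraries lay below day 0 (log2 fold change -1.62 ± 0.34, adjusted p = 0.0043). Acvr1b, an activin receptor, averaged 34.8 ± 13.1 CPM at day 7 and 28.0 ± 1.23 CPM at day 0 (adjusted p = 0.31). Its log2 fold change of 0.52 passed without the first day 7 library, and without the third it was -0.028 and did not pass. Bmpr1b had no count in any library.

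Per kilobase, Bmpr1a was the most abundant type I receptor gene on both days, at 14.9 ± 1.25 CPM per kilobase at day 7 and 13.3 ± 0.179 at day 0. Acvr1b (7.88 ± 2.97) and Tgfbr1 (6.95 ± 1.42) followed at day 7 and did not differ from each other beyond their spread, with Acvr1 (3.21 ± 0.371) below them. At day 0 Acvr1 (7.86 ± 0.455) came second, before Tgfbr1 (7.06 ± 0.186) and Acvr1b (6.33 ± 0.277). The summed level of the 6 type I receptor genes was 33.6 ± 2.33 CPM per kilobase at day 7 and 36.5 ± 0.382 at day 0.

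The coreceptors Tgfbr3 and Eng and the pseudoreceptor Bambi were all lower at day 7, where 29.2% of all tested genes were. Tgfbr3 encodes betaglycan, which presents TGF-beta and inhibin to the receptors (chr5:107106570-107289629). It had 172, 159 and 202 CPM in day 7 libraries, against 375, 390 and 388 CPM in day 0 libraries. The days did not overlap (log2 fold change -1.11 ± 0.13, adjusted p = 0.00026). Its counts were fractional in all 6 libraries, so reads may be shared with other transcripts and its level is uncertain. Eng, the endothelial coreceptor endoglin, averaged 0.853 ± 0.323 CPM at day 7 and 2.12 ± 0.262 CPM at day 0 (log2 fold change -1.38 ± 0.34, adjusted p = 0.0088). It was tested only through its day 0 level and overlaps Fpgs on the other strand. Bambi, which lacks a kinase domain and blocks receptor signalling, averaged 1.57 ± 0.300 CPM at day 7 and 2.89 ± 0.241 CPM at day 0 (log2 fold change -0.90 ± 0.25, adjusted p = 0.014). The Bambi call was lost without day 0 replicate 2 or 3, at log2 fold changes of -0.93 and -0.84.

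**Figure D3:**
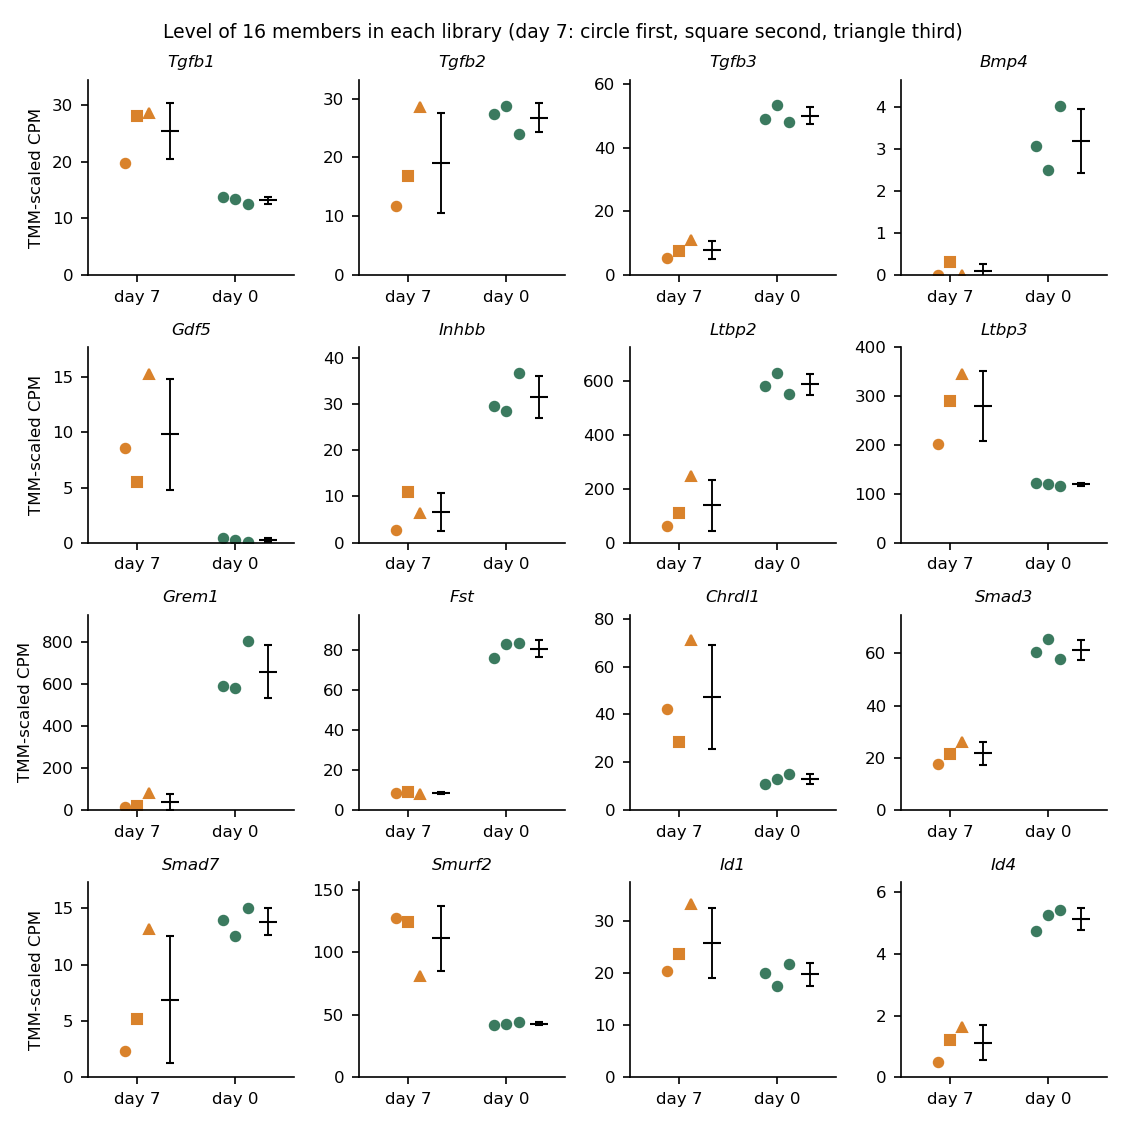
TMM-scaled CPM of 16 members in each library, day 7 (orange) left of day 0 (green), with the mean and SD of 3 libraries beside the points; each panel has its own axis from 0. The third day 7 library (triangle) is the highest of its day in every panel but Bmp4, Inhbb, Fst and Smurf2. That holds for genes that fell, such as Grem1, and for genes that rose, Tgfb1, Gdf5, Ltbp3 and Chrdl1. In the Tgfb2 panel it reaches 28.5 CPM, inside the day 0 range.

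The secreted antagonists went in opposite directions. All 6 tested members changed: Grem1, Fst, Fstl1 and Nbl1 fell, and Chrdl1 and Chrd rose. Of all tested genes 60.0% were called, 29.2% as lower and 30.8% as higher, and with so few members these shares were not compared by a test. Grem1 encodes gremlin, which binds BMP ligands (chr2:113746164-113758646, promoter above). It had 13.1, 17.0 and 83.2 CPM in day 7 libraries, against 594, 583 and 807 CPM in day 0 libraries. It was 17.8-fold lower with no overlap (log2 fold change -4.15 ± 0.71, adjusted p = 0.0016), and its log2 fold change was -5.47 without the third day 7 library. Fst, follistatin, binds activins (chr13:114452290-114458951). It had 8.56, 9.06 and 8.15 CPM at day 7, against 76.0, 83.1 and 83.7 CPM at day 0. The 3 libraries of each day lay close together, 9.40-fold apart between the days (log2 fold change -3.23 ± 0.11, adjusted p = 3.1e-06). Fstl1, a secreted glycoprotein of the follistatin family (chr16:37776873-37836514), had 125, 157 and 106 CPM at day 7, against 794, 828 and 739 CPM at day 0. Its fall was 6.08-fold with no overlap (log2 fold change -2.60 ± 0.18, adjusted p = 2.1e-05). Nbl1, a BMP antagonist of the DAN family, averaged 0.864 ± 0.607 CPM at day 7 and 3.66 ± 0.308 CPM at day 0 (log2 fold change -2.27 ± 0.47, adjusted p = 0.0041), or -2.88 without the third day 7 library, and was tested only through its day 0 level.

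The chordin genes rose. Chrdl1, chordin-like 1, binds BMP4 and related ligands (chrX:143285674-143394262). It had 42.3, 28.3 and 71.3 CPM in day 7 libraries, against 10.7, 13.0 and 14.9 CPM in day 0 libraries. Every day 7 library lay above day 0, 3.64-fold on average (log2 fold change 1.87 ± 0.32, adjusted p = 0.0016). Chrd, chordin (chr16:20733127-20742384), had 5.72, 4.48 and 8.83 CPM at day 7, against 1.67, 1.55 and 2.84 CPM at day 0. It was 3.11-fold higher with no overlap (log2 fold change 1.64 ± 0.34, adjusted p = 0.0038), and it overlaps Thpo on the other strand. Nog, noggin, was not tested, with 51 counts over the day 7 libraries, most of them in the third library at 4.48 CPM, and 16 over the day 0 libraries. Fstl3 was not tested either, with 6 counts over the day 7 libraries and 7 over the day 0 libraries.

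Among the BMP-binding antagonists Grem1, Chrd, Chrdl1, Nbl1 and Nog, the summed level was 18.7 ± 14.5 CPM per kilobase at day 7 and 164 ± 31.1 at day 0. Grem1 held 42.8% ± 13.9 of it at day 7 and 97.4% ± 0.209 at day 0, and Chrdl1 held 43.5% ± 13.6 at day 7 and 1.17% ± 0.141 at day 0. At day 7 the order of Grem1 and Chrdl1 differed between libraries, with Grem1 at 28.8% and Chrdl1 at 57.0% in the first, Grem1 at 42.8% and Chrdl1 at 43.7% in the second, and Grem1 at 56.7% and Chrdl1 at 29.8% in the third library.

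Of the 8 Smad genes, 4 fell, where 29.2% of all tested genes did, and none rose, where 30.8% did. In either direction 4 of 8 were called, where 60.0% of all tested genes were. Smad9, among those that fell, was tested only through its day 0 level. With so few genes, these shares were not compared by a test. By DESeq2 5 fell, by limma-voom 6 fell, and at an unadjusted p under 0.05 in edgeR 5 fell, each with 0 higher. Smad3, which carries TGF-beta and activin signals (chr9:63646767-63757994), had 17.5, 21.5 and 26.2 CPM in day 7 libraries, against 60.5, 65.6 and 58.1 CPM in day 0 libraries. It was 2.85-fold lower with no overlap (log2 fold change -1.51 ± 0.15, adjusted p = 0.00012). Its partner Smad2 had 20.5, 23.5 and 28.5 CPM at day 7, against 19.9, 22.6 and 21.6 CPM at day 0. These libraries overlapped (log2 fold change 0.17 ± 0.14, adjusted p = 0.34). Smad4, the common partner of both branches, had 26.8, 23.9 and 31.1 CPM at day 7, against 44.4, 40.5 and 41.9 CPM at day 0. It fell 1.55-fold with no overlap (log2 fold change -0.63 ± 0.12, adjusted p = 0.0026).

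On the BMP branch, Smad1 fell and Smad5 did not pass. Smad1 (chr8:79338395-79399518) had 12.5, 11.0 and 10.9 CPM in day 7 libraries, against 22.9, 23.8 and 23.0 CPM in day 0 libraries. The days were 2.02-fold apart with no overlap (log2 fold change -1.01 ± 0.12, adjusted p = 0.00023). Smad5 had 37.0, 36.8 and 41.4 CPM at day 7, against 40.5, 45.9 and 39.9 CPM at day 0. Its libraries overlapped (log2 fold change -0.14 ± 0.11, adjusted p = 0.30). Smad9 had 0.737, 0.509 and 1.77 CPM at day 7, against 2.28, 2.30 and 2.92 CPM at day 0 (log2 fold change -1.41 ± 0.43, adjusted p = 0.022), and was tested only through its day 0 level. Its call was lost when any single library other than the third day 7 library was left out, at log2 fold changes from -1.47 to -1.13.

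The inhibitory Smads, which are switched on by the pathway and dampen it, did not pass in the edgeR fit of all 6 libraries. Smad7 had 2.38, 5.19 and 13.2 CPM at day 7, against 13.9, 12.6 and 15 CPM at day 0. Here the third day 7 library lay inside the day 0 range (log2 fold change -1.08 ± 0.51, adjusted p = 0.10). Smad6 had 5.44, 11.2 and 13.6 CPM at day 7, against 18.0, 15.3 and 17.3 CPM at day 0. All its day 7 libraries lay below day 0 (log2 fold change -0.78 ± 0.30, adjusted p = 0.057). Without the third day 7 library both passed, Smad7 at -1.94 and Smad6 at -1.06, and Smad6 also passed without the first, at -0.45. With all 6 libraries both passed with limma-voom (Smad7 at -1.62 and Smad6 at -0.98), with total-count scaling (Smad7 at -1.30 and Smad6 at -1.02) and without the filter on low counts, and Smad6 also with DESeq2 (-0.77) and upper-quartile scaling (-0.83). As shares of the 5 receptor Smads per length, Smad3 made up 28.1% ± 2.75 at day 7 and 47.4% ± 0.809 at day 0, and Smad5 made up 37.5% ± 1.91 at day 7 and 24.3% ± 0.574 at day 0.

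Of the 4 regulators of Smads, 3 rose, where 30.8% of all tested genes did by edgeR and 29.2% fell. None passed as lower with edgeR or DESeq2, while Tgif1 was lower with limma-voom and at an unadjusted p under 0.05 in edgeR. In the longer list of Smad cofactors and regulators described below, 7 of 36 tested genes were higher and 9 lower. Smurf1 and Smurf2 are ubiquitin ligases that mark Smads and receptors for degradation, and Skil encodes SnoN, a repressor of Smad-driven transcription. Smurf2 (chr11:106820066-106920715) had 128, 125 and 81.2 CPM in day 7 libraries, against 42.3, 42.6 and 44.4 CPM in day 0 libraries. It was 2.59-fold higher with no overlap (log2 fold change 1.37 ± 0.18, adjusted p = 0.00037). Smurf1 had 115, 119 and 124 CPM at day 7, against 69.0, 73.8 and 78.5 CPM at day 0. Its days did not overlap (log2 fold change 0.69 ± 0.10, adjusted p = 0.00073), but with libraries scaled by total counts the log2 fold change of 0.45 did not pass. Skil had 33.6, 31.8 and 28.5 CPM at day 7, against 15.3, 16.5 and 19.9 CPM at day 0. All day 7 libraries were higher (log2 fold change 0.86 ± 0.13, adjusted p = 0.00098). Tgif1, a homeodomain repressor of Smad targets, averaged 23.2 ± 2.72 CPM at day 7 and 28.7 ± 1.31 CPM at day 0 (log2 fold change -0.31 ± 0.12, adjusted p = 0.054), and it passed without the third day 7 library, at -0.38, with limma-voom and with each other scaling.

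The Id genes, which encode inhibitors of helix-loop-helix factors and are standard BMP targets, did not move together. Id1 (chr2:152736251-152737410) had 20.5, 23.6 and 33.3 CPM in day 7 libraries, against 20.1, 17.5 and 21.7 CPM in day 0 libraries. Its lowest day 7 library lay inside the day 0 range (log2 fold change 0.38 ± 0.19, adjusted p = 0.13), and its log2 fold change of 0.52 passed without that library. Without the third day 7 library, its highest of that day, it was 0.16 and did not pass (adjusted p = 0.32). Id4 (chr13:48261228-48266026, promoter above) had 0.510, 1.22 and 1.63 CPM at day 7, against 4.74, 5.28 and 5.42 CPM at day 0. It was 5.03-fold lower with no overlap (log2 fold change -2.33 ± 0.37, adjusted p = 0.0010), and like Id2 it was tested only through its day 0 level. Id2 (chr12:25093799-25097140) had 0.623, 2.75 and 6.65 CPM at day 7, against 6.58, 7.89 and 8.67 CPM at day 0. Its day 7 libraries spread widely and the third reached day 0 (log2 fold change -1.36 ± 0.63, adjusted p = 0.097). Id3 (chr4:136143497-136145755) had 9.75, 5.80 and 24.2 CPM at day 7, against 20.7, 22.0 and 26.4 CPM at day 0. Here the third day 7 library lay inside the day 0 range (log2 fold change -0.83 ± 0.44, adjusted p = 0.14). Without that library both passed, Id2 at -2.36 and Id3 at -1.52. With all 6 libraries both passed with limma-voom (Id2 at -2.20 and Id3 at -1.13), and Id2 also with total-count scaling (-1.60) and without the filter on low counts (-1.38).

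Per length, Id1 made up 73.2% ± 9.16 of the Id transcripts at day 7 and 49.5% ± 2.92 at day 0. The summed Id level was 31.3 ± 12.2 CPM per kilobase at day 7 and 34.4 ± 3.49 at day 0, a difference within the spread. Tgfbi, a matrix protein named for its induction by TGF-beta (chr13:56609523-56639562), had 6.80, 21.5 and 5.02 CPM in day 7 libraries, against 29.1, 33.9 and 28.2 CPM in day 0 libraries. All day 7 libraries were lower, the second least so (log2 fold change -1.46 ± 0.47, adjusted p = 0.028). Its log2 fold change was -2.33 without the second day 7 library. The call was lost without the first, at -1.17, and without any 1 day 0 replicate, at -1.51 to -1.37.

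**Figure D4:**
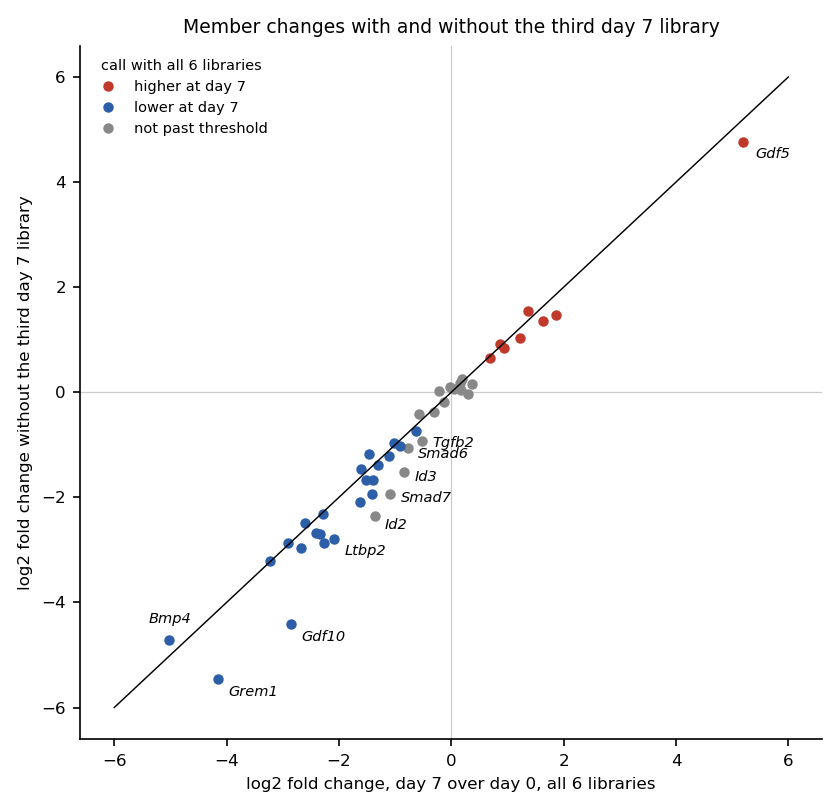
Log2 fold change (day 7 over day 0) of each tested member with all 6 libraries (x axis) and without the third day 7 library (y axis), coloured by the call with all 6; the line marks equal values. Points below the line have a lower fold change without that library, among them Grem1 (-4.15 and -5.47), Gdf10 (-2.86 and -4.42) and the uncalled Id2 (-1.36 and -2.36).

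The third day 7 library often lay nearest to day 0 for the members that fell. It was the highest day 7 library for 15 of the 23 members called lower (65.2%), against 1665 of all 3611 genes called lower (46.1%). For the members that rose it was the lowest of its day for 2 of 8 (25.0%), against 1738 of 3802 (45.7%). Without it 9 members were higher and 29 lower, and the median log2 fold change of the tested members was -1.06. Calls over all genes also went up without it, to 4185 higher and 4044 lower of 12712 tested, against 3802 and 3611 of 12354 with the third library kept. The fibroblast and preadipocyte markers Pdgfra, Thy1, Dlk1 and Ly6a, but not Col1a1, were also higher in this library than in the other day 7 libraries, as were 4 of the 7 adipocyte markers, and their part in these values was not tested.

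Beyond the 56 members, 7 lists of further genes of the pathway were counted, 163 genes in all when each is taken once, of which 113 were tested. Of these 14 were higher (12.4%, against 30.8% of all tested genes) and 67 lower (59.3%, against 29.2%) at day 7, with a median log2 fold change of -1.11. The lists were chosen with earlier results of these data known, so their shares are given as a description. Of the 113, 13 passed the filter through day 0 alone, among them Mmp9, Fmod, Gata2 and Atoh8 of those named here. Of the 99 over it in every library, 14 were higher (14.1%, against 32.0% of all such genes) and 55 lower (55.6%, against 26.8%). All 16 tested genes of the list for latent TGF-beta activation fell (100%, against 29.2% of all tested genes, median -1.90). In this list 0 were higher by edgeR (30.8% of all tested genes were), at an unadjusted p under 0.05, by DESeq2 or by limma-voom. The list holds integrins that pull on the complex and proteases that cut it, but also genes such as Fbn1, Furin and Lrrc32, so not every gene in it acts in release. Of the 16, 4 were tested through day 0 alone, and of all genes so tested 72.4% were lower. Mmp9, a gelatinase, averaged 3.30 ± 4.32 CPM at day 7 and 75.9 ± 7.29 CPM at day 0 (log2 fold change -4.80 ± 0.74, adjusted p = 0.00089). The third day 7 library held 8.28 CPM of Mmp9, against 0.510 and 1.12 CPM in the others, and the log2 fold change was -6.67 without it and -4.11 without the first. Thbs1, thrombospondin 1, a known activator of latent TGF-beta, averaged 83.1 ± 37.0 CPM at day 7 and 1158 ± 121 CPM at day 0 (log2 fold change -3.80 ± 0.36, adjusted p = 7.9e-05).

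Of the further secreted antagonists, 10 of 11 tested fell (90.9%, against 29.2% of all tested genes, median log2 fold change -1.25), and Dand5 rose. Fmod was 1 of 2 tested through day 0 alone, and of the 9 over the filter in every library 8 fell (88.9%, against 26.8% of all such genes). Fmod, fibromodulin, a matrix proteoglycan that binds TGF-beta, averaged 1.02 ± 1.06 CPM at day 7 and 20.7 ± 1.95 CPM at day 0 (log2 fold change -4.45 ± 0.52, adjusted p = 0.00023), or -5.79 without the second and -3.80 without the first day 7 library. Dcn, decorin, which also binds TGF-beta, averaged 88.2 ± 80.5 CPM at day 7 and 1034 ± 61.8 CPM at day 0 (log2 fold change -3.56 ± 0.68, adjusted p = 0.0026), or -4.59 without the third day 7 library. Dand5, a DAN family antagonist, averaged 3.40 ± 0.768 CPM at day 7 and 1.84 ± 0.267 CPM at day 0 (log2 fold change 0.87 ± 0.26, adjusted p = 0.020), and its call was lost without the second day 7 library or without day 0 replicate 1 or 3, at 0.68 to 0.86.

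Of 19 further ligands, 2 could be tested, and 8 of the other 17 had no count at all. Gdf11 averaged 2.35 ± 1.5 CPM at day 7 and 16.3 ± 0.925 CPM at day 0 (log2 fold change -2.89 ± 0.35, adjusted p = 0.00026). Inha, the inhibin alpha chain, averaged 2.83 ± 0.427 CPM at day 7 and 1.44 ± 0.356 CPM at day 0 (log2 fold change 1.0 ± 0.28, adjusted p = 0.015), a call lost without the first day 7 library or day 0 replicate 2 or 3, at 0.86 to 0.92. Among further receptors and coreceptors, 4 of 6 tested genes fell by edgeR (66.7%, against 29.2% of all tested genes, median -0.80). In this list 0 rose by edgeR, at an unadjusted p under 0.05, by DESeq2 or by limma-voom. Nrp2, neuropilin 2, averaged 39.9 ± 4.56 CPM at day 7 and 261 ± 12.3 CPM at day 0 (log2 fold change -2.71 ± 0.13, adjusted p = 6.0e-06). Cd109, a coreceptor that limits TGF-beta signalling, averaged 8.30 ± 0.402 CPM at day 7 and 23.0 ± 1.57 CPM at day 0 (log2 fold change -1.47 ± 0.13, adjusted p = 5.0e-05). Acvr1c, the receptor ALK7 known from adipose tissue, had 1 count in all, in the first day 7 library.

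Of 27 tested TGF-beta target genes, 19 fell (70.4%, against 29.2% of all tested genes) and 3 rose (11.1%, against 30.8%), with a median log2 fold change of -2.05. Without the 4 tested through day 0 alone, 15 of 23 fell (65.2%, against 26.8% of all genes over the filter in every library). Timp3, an inhibitor of metalloproteinases, averaged 7.05 ± 4.42 CPM at day 7 and 142 ± 9.21 CPM at day 0 (log2 fold change -4.42 ± 0.49, adjusted p = 0.00017). Acta2, smooth muscle actin and the usual mark of myofibroblasts, averaged 29.1 ± 12.0 CPM at day 7 and 377 ± 7.35 CPM at day 0 (log2 fold change -3.71 ± 0.33, adjusted p = 5.9e-05). Bhlhe40 and Tgm2 were among those that rose. Bhlhe40, a helix-loop-helix repressor, averaged 123 ± 60.4 CPM at day 7 and 29.1 ± 0.624 CPM at day 0 (log2 fold change 2.07 ± 0.38, adjusted p = 0.0022). Tgm2, a transglutaminase, averaged 32.4 ± 7.18 CPM at day 7 and 7.74 ± 0.934 CPM at day 0. Tgm2 was picked after its values were seen. Many of these targets are also fibroblast or contractile genes, and Col1a1 of the list stands among the fibroblast markers whose summed level was lower at day 7; the part of TGF-beta signalling in their fall was not tested.

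**Figure D5:**
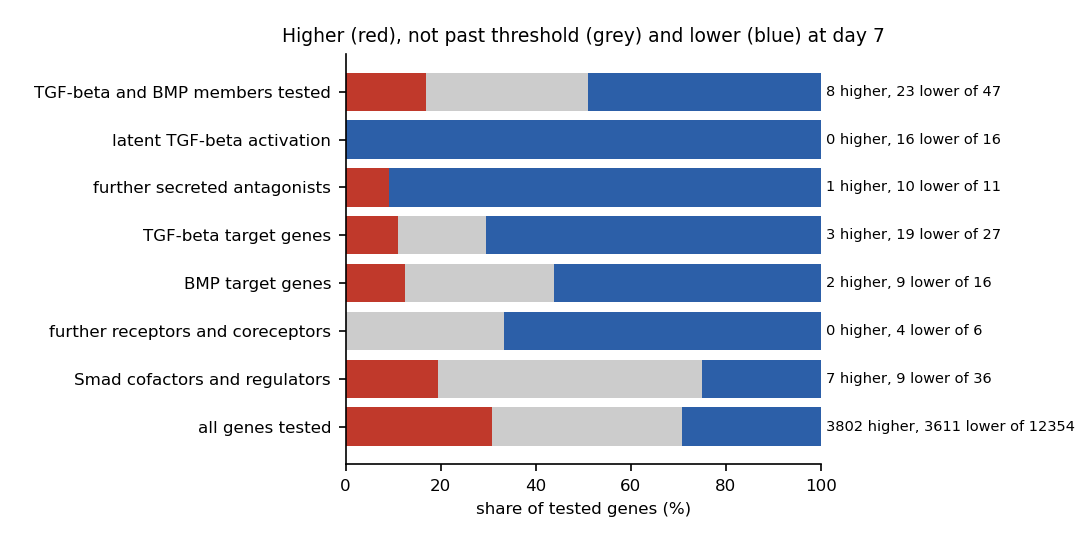
Share (%) of the tested genes of each list that were higher (red), not past the threshold (grey) or lower (blue) at day 7 at an edgeR adjusted p under 0.05, with counts at the right; the list of further ligands, with 2 tested genes, is not drawn. The latent activation genes are lower without exception (16 of 16), and the Smad cofactors are mostly grey (7 higher and 9 lower of 36), beside 3802 higher and 3611 lower of all 12354 tested genes.

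Of 16 tested BMP target genes, 9 fell (56.2%, against 29.2% of all tested genes) and 2 rose (12.5%, against 30.8%), with a median log2 fold change of -1.18. Of the 16, 3 were tested through day 0 alone, Gata2 and Atoh8 among them. Of the 12 over the filter in every library, 7 fell (58.3%, against 26.8% of all such genes) and 2 rose (16.7%, against 32.0%). Gata2, a transcription factor that restrains adipogenesis, averaged 0.932 ± 1.09 CPM at day 7 and 13.3 ± 1.08 CPM at day 0 (log2 fold change -4.17 ± 0.62, adjusted p = 0.00078), or -5.62 without the third and -3.40 without the first day 7 library. Atoh8, a helix-loop-helix factor, averaged 4.01 ± 4.70 CPM at day 7 and 30.1 ± 2.18 CPM at day 0 (log2 fold change -3.10 ± 0.72, adjusted p = 0.0069), or -4.67 without the third and -2.46 without the first day 7 library. Zfp423, a preadipocyte determination factor that binds BMP Smads, averaged 29.9 ± 5.10 CPM at day 7 and 18.1 ± 1.12 CPM at day 0 (log2 fold change 0.72 ± 0.15, adjusted p = 0.0037), a gene picked after its values were seen. Alpl, alkaline phosphatase, had 6.40, 2.85 and 28.7 CPM at day 7, against 2.63, 3.11 and 2.59 CPM at day 0. Its second day 7 library lay inside the day 0 range (log2 fold change 2.12 ± 0.76, adjusted p = 0.043), and its call was lost without the third day 7 library, at 0.78, and without any 1 day 0 replicate.

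The Smad cofactors and regulators went both ways, with 7 of 36 tested genes higher (19.4%, against 30.8% of all tested genes) and 9 lower (25.0%, against 29.2%). Their median log2 fold change was -0.00, close to that of all tested genes. Hipk2, a kinase that works with Smad-bound corepressors, averaged 365 ± 38.7 CPM at day 7 and 64.7 ± 1.98 CPM at day 0 (log2 fold change 2.49 ± 0.13, adjusted p = 8.4e-06). Tgif2, a repressor related to Tgif1, averaged 1.31 ± 0.187 CPM at day 7 and 7.82 ± 0.288 CPM at day 0 (log2 fold change -2.58 ± 0.19, adjusted p = 2.5e-05). Runx1, a Smad-binding transcription factor, averaged 6.78 ± 6.59 CPM at day 7 and 36.4 ± 1.88 CPM at day 0 (log2 fold change -2.53 ± 0.55, adjusted p = 0.0050), or -3.60 without the third day 7 library, its highest of that day. Runx2 is counted both here and among the BMP targets.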

How the data were processed

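RNA of wild-type 3T3-L1 cells at day 7 and day 0 was sequenced from Illumina Stranded Total RNA Prep libraries, per the labels' protocols. The submitters' processing notes name genome build GRCm38, Salmon 1.9.0, STAR 2.7.10a and Trim Galore 0.6.7, but no role for each, no annotation and no use of strand. The authors deposited 1 estimated count for each gene in each library without scaling, a unit read from the values. Another 10 columns of per-sample values were not used. The header numbers all 3 day 7 columns as replicate 1, so those libraries take their names (the third day 7 library and so on) from column order.

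Counts were rounded and fitted with edgeR 4.0.16 in R 4.3.3: filterByExpr (minimum 10 counts, 15 in total), TMM scaling with factors from 0.778 to 1.14, the quasi-likelihood test with day as the only term, and Benjamini-Hochberg adjustment over 12354 genes at 0.05. The biological coefficient of variation was 0.186. Replicates differed by more than sampling noise (chi-square per gene of at least 6.78), so each library counted once. With 3 libraries per day an exact permutation test of a single gene cannot go below p = 0.1, and none was used. Positions and exon lengths came from GENCODE M21 and promoters from RefSeq (GRCm38.p6). Intervals and floors cover counting error only.

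The fits were repeated with scaling by total counts, RLE or upper quartiles, with other filters, with DESeq2 1.42.0 or limma-voom (limma 3.58.1), after removal of the 10 most abundant rows with mitochondrial genes, and without each library in turn. Scripts were tested on simulated data. The members and lists were chosen with earlier results of these data known. Values are given for members past the threshold with at least a 2-fold change and a mean of 5 CPM on 1 day, for the TGF-beta ligands, main receptors, Bmp4, Smads and Id genes whatever their result, and of each further list for the 2 genes most changed in its main direction and the 1 in the other. These are values per library for members, and mostly a mean and SD for genes of the further lists. Other per-library values and the genes said to be picked were chosen with their values in view. Chrdl2, Cnn1, Adgre1 and Acan were not analysed here.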

Additional observations from a re-analysis of the deposited data

How the results depend on the processing

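Of the 31 members called, 27 kept their call and sign under every one of the 14 alternatives that tested them, and 4 (Bambi, Smad9, Tgfbi and Smurf1) lost it under at least 1, none of them with a change of sign. Another 9 members gained a call under at least 1 alternative. The sign of 7 members that did not pass changed under at least 1 alternative. With total-count scaling the log2 fold change was -0.039 for Tgfbr2, -0.055 for Bmpr1a, -0.18 for Bmpr2 and -0.066 for Smad2, and with upper-quartile scaling -0.011 for Bmpr2, with none of these past the threshold. Leaving out 1 library at a time gave -0.19 to 0.10 for Tgfbr1, -0.00073 to 0.063 for Bmpr2, -0.028 to 0.52 for Acvr1b and -0.38 to 0.022 for Acvr2a. Both of the following counts moved by more than the 1.5-fold limit. With total-count scaling 2355 genes were higher at day 7, against 3802 with TMM. With a filter of 10 CPM in 3 libraries 15 members were lower, against 23, because fewer members were tested. Leaving out 1 library at a time gave 8 to 10 members higher and 20 to 29 lower, and 3118 to 4185 of all genes higher and 3008 to 4044 lower. No paired analysis was possible because the 3 day 7 columns all carry replicate number 1. Depth limits the low members: 9 were not tested, and counts outside the 10 most abundant rows ran from 3969822 to 9459808 per library.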
